A study of Mus musculus with 12 samples.

Results

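The 9 genes described here build the route by which cells load peptides onto major histocompatibility complex (MHC) class I molecules. They are Tap1, Tap2, Tapbp, Psmb8, Psmb9, Psmb10, B2m, Erap1 and Nlrc5, chosen by name as members of that pathway. Earlier results of these data were known when they were chosen. All 9 had a probe set with exactly 1 gene symbol, out of 22180 genes with such a probe set, and all 9 were bright enough to be among the 9862 genes tested. Tapbp had a second probe set, and the brighter was used.

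RNA of mouse CD8 T cells was hybridised to 12 Affymetrix arrays, 3 per group. The groups were Tc17 STAT3-/-, Tc17 WT, Tc1 STAT3-/- and Tc1 WT, where Tc17 cells are an interleukin-17-producing state and Tc1 cells a cytotoxic one. Naive CD8 T cells came from the spleen of WT and of Cd4cre+ STAT3fl/fl mice, in which a Cd4-driven Cre recombinase deletes Stat3 in T cells. Cells of both genotypes were combined in equal numbers, activated with 1 µg/ml anti-CD3 and 3 µg/ml anti-CD28, and held for 3 days in IL-12 (Tc1) or in IL-6 and TGFb (Tc17). A last day in IL-2 brought the culture to 4 days, and allelic markers were then used to sort the genotypes apart, so STAT3-/- and WT cells of a condition had shared 1 culture medium. The labels give no age for the mice.

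In each group, 2 arrays are labelled as biological replicates and 1 as a technical replicate numbered 2. Its value and that of biological replicate 2 were averaged, which gave 2 samples per group. The labels do not say which sample the technical array repeats. The SD over genes of the difference between the technical array and biological replicate 2 was 0.209 to 0.352 in the 4 groups, against 0.144 to 0.192 between biological replicates 1 and 2, so the technical array stood farther from replicate 2 than replicate 1 did. Which animals or cultures lie behind the replicate numbers is not labelled. The p-values therefore reflect the spread among these samples alone, and part of it may be technical. Stat3 itself had log2 levels of 7.59 to 7.93 in Tc17 STAT3-/- cells against 10.38 to 10.72 in Tc17 WT cells. In Tc1 cells its range was 6.99 to 7.67 without STAT3 against 9.77 to 10.13 in WT. Whether the Stat3 probes lie inside the deleted exons is not known here, and a probe outside them would check nothing. Over the tested genes the Tc17 WT technical array correlated least with the rest, at a median of 0.933, while each of the others had a median of at least 0.961.

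MHC class I molecules show short peptides from the cell's own proteins to CD8 T cells. In the cytosol the proteasome cuts proteins into peptides, and in cells exposed to interferon its 3 catalytic beta subunits are exchanged for PSMB8, PSMB9 and PSMB10, which makes the immunoproteasome. The transporter TAP1-TAP2 carries the peptides into the endoplasmic reticulum, ERAP1 trims them, and tapasin (Tapbp) holds the class I molecule at the transporter while it is loaded. The class I molecule is a heavy chain bound to beta-2 microglobulin (B2m). NLRC5 is a transactivator that raises transcription of heavy chain, B2m, Tap1 and Psmb9 genes through promoter elements named W/S, X1, X2 and Y, and interferon-gamma acts on the same genes through IRF1. STAT3 transmits the signal of IL-6, among other cytokines.

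5 of the 9 genes lie on mouse chromosome 17 in the MHC region, in GRCm38.p6 coordinates. Tapbp lies at chr17:33919478-33929290, Psmb9 at chr17:34182030-34187330, Tap1 at chr17:34187556-34197225, Psmb8 at chr17:34198195-34201454 and Tap2 at chr17:34204479-34216321. Psmb9 and Tap1 are divergent neighbours whose start sites are 226 bases apart. The other 4 lie elsewhere, B2m at chr2:122147687-122153082, Erap1 at chr13:74639573-74693205, Nlrc5 at chr8:94434335-94527272 and Psmb10 at chr8:105935728-105938392.

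Promoter windows of 250 bases before to 50 after the start site were available from RefSeq (GRCm38.p6) for 7 of the 9 genes, that is for all but Tap2 and Nlrc5. They were searched on both strands for 4 motifs. A pair of GAAA repeats with any 2 bases between them, the core of an element bound by interferon regulatory factors (ISRE-type), occurred in 3.44% of all 32851 promoter windows. TTCNNNGAA, the element bound by STAT dimers (GAS-type), occurred in 8.3%. CCAAT, the Y box bound by NF-Y, occurred in 37.4%, and TGACG, part of the X2 element bound by CREB and ATF factors, in 20.8%. In the windows of the 7 genes no match overlapped another. The 5 windows below are shown because together they hold every match found in the 7 windows, the Psmb9 window being the Tap1 window read from the other strand over most of its length. Capitals mark the matches, and each sequence runs 5′ to 3′ on the gene's strand.

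Tap1: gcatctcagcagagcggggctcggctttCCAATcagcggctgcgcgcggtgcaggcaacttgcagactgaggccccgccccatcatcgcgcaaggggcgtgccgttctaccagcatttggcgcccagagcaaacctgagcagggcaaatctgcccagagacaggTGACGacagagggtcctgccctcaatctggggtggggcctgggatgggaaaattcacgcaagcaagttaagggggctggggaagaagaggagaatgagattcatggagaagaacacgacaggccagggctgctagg

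Tapbp: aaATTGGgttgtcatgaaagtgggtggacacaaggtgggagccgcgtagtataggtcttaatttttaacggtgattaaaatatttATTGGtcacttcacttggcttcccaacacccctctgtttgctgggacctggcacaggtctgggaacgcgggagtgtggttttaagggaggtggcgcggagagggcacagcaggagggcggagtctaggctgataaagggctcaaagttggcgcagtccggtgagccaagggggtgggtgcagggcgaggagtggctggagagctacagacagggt

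B2m: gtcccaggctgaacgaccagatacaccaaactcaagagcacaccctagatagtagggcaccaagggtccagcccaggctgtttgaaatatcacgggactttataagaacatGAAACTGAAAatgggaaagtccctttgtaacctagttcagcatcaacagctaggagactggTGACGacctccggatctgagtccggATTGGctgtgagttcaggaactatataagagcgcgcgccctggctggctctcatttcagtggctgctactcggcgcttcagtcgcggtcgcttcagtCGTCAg

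Erap1: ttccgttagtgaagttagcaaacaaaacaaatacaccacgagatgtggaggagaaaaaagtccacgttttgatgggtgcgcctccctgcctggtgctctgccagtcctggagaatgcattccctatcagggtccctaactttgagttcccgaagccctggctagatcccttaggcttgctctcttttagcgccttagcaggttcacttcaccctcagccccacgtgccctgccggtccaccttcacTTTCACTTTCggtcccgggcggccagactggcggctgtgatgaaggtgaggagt

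Psmb8: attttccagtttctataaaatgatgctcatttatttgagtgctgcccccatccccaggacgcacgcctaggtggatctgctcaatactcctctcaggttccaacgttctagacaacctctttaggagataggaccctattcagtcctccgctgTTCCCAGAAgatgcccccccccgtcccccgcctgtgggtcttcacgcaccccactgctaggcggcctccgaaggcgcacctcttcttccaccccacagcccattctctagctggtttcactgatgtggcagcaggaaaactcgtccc

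The Tap1 window (chr17:34187306-34187605, plus strand) held a Y box at -222 and an X2-type match at -86 from the start site. The Psmb9 window is the same DNA read from the other strand over 275 bases, so both genes share these matches. The Tapbp window (chr17:33919228-33919527, plus strand) held 2 Y boxes, both on the reverse strand. The B2m window (chr2:122147437-122147736, plus strand) held an ISRE-type match at -139, 2 X2-type matches and a Y box on the reverse strand at -53. The Erap1 window (chr13:74639603-74639902, plus strand) held 1 ISRE-type match, on the reverse strand at -4. Its start site (chr13:74639853) lies 280 bases inside the gene as placed above, whereas for the other 6 genes the window's start site is the first base of the gene on its strand. The Psmb8 window (chr17:34197945-34198244, plus strand) held 1 GAS-type match at -97 and none of the others. Psmb10 had no match. These are matches of letters in a fixed window, and binding was not measured.

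In all 9 genes Tc17 WT was the group with the lowest mean level, and the other 3 groups lay close together. In Tc17 cells 8 of the 9 genes were higher without STAT3, by 0.46 to 0.89 on the log2 scale, and Psmb8 did not pass the test, where 18.2% of all genes tested were higher. In Tc1 cells 0 of the 9 genes passed, as 0.0608% of all genes did. The levels of each gene follow by role. Values are RMA log2 levels, given per array as biological replicate 1, biological replicate 2 and the technical array, and a level of one gene cannot be set against a level of another.

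**Figure D1:**
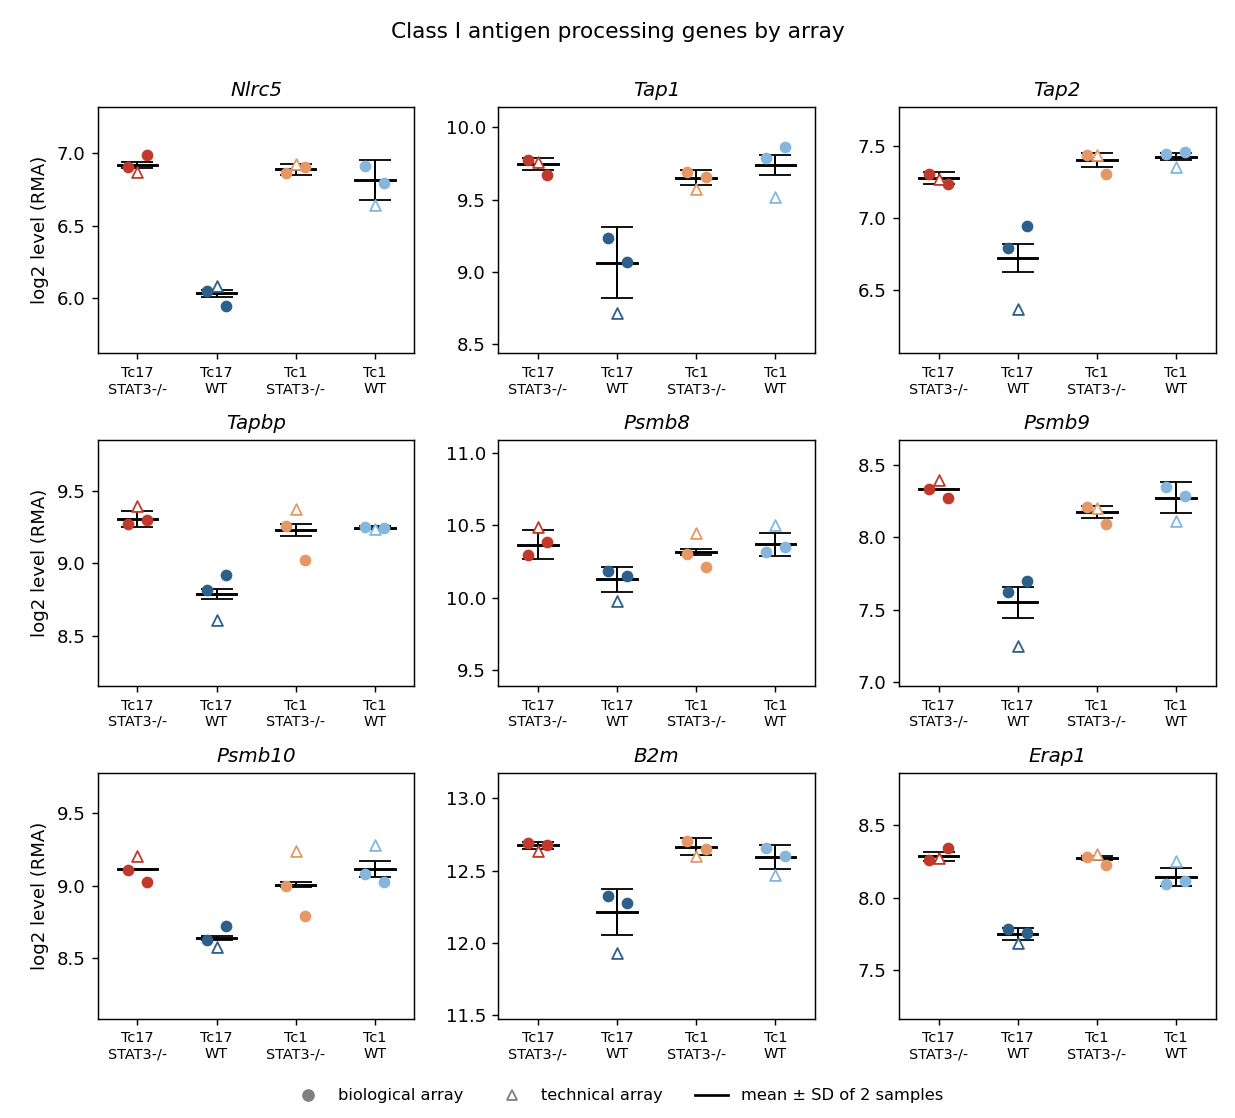
RMA log2 level (vertical axis, a different range in each panel, not starting at 0) of the 9 genes on each array, by group. Filled circles are biological arrays, open triangles technical arrays, and lines the mean ± SD of the 2 samples of a group. In every panel the 3 Tc17 WT arrays lie below the 3 Tc17 STAT3-/- arrays and below the 3 Tc1 WT arrays, as for 33.6% and 30.1% of all genes tested.

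Nlrc5, the transactivator, had levels of 6.90, 6.99 and 6.87 on Tc17 STAT3-/- arrays, against 6.05, 5.95 and 6.09 on Tc17 WT arrays. On Tc1 STAT3-/- arrays it had 6.86, 6.91 and 6.93, against 6.91, 6.80 and 6.64 on Tc1 WT arrays. Every Tc17 WT array thus lay below every array of the other 3 groups, which overlapped one another. Its mean was 6.92 ± 0.020 in Tc17 STAT3-/- cells and 6.03 ± 0.023 in Tc17 WT cells (SD, n = 2 each). The difference of 0.89 ± 0.09 (SE), or 1.85-fold, was the largest of the 9 genes in this comparison (limma adjusted p = 0.000362).

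Tap1 encodes one chain of the peptide transporter. It had levels of 9.78, 9.67 and 9.76 on Tc17 STAT3-/- arrays, against 9.24, 9.07 and 8.71 on Tc17 WT arrays. In Tc1 cells it had 9.69, 9.66 and 9.57 on STAT3-/- arrays, against 9.79, 9.86 and 9.52 on WT arrays. Tc17 WT arrays were again below all others, the technical one farthest, while the other 3 groups overlapped. The change in Tc17 cells was 0.68 ± 0.12 (SE; limma adjusted p = 0.00439). Over the biological arrays alone it was 0.57, and between the 2 technical arrays 1.04.

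Tap2, the transporter's other chain, had 7.31, 7.23 and 7.27 on Tc17 STAT3-/- arrays, against 6.79, 6.94 and 6.37 on Tc17 WT arrays. Tc1 STAT3-/- arrays had 7.44, 7.30 and 7.43, against 7.44, 7.46 and 7.35 on Tc1 WT arrays. The Tc17 WT arrays lay below all 9 others, and the change in Tc17 cells was 0.55 ± 0.09 (SE; limma adjusted p = 0.00313). It was 0.40 over the biological arrays and 0.90 between the technical ones.

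Tapbp encodes tapasin. Its levels were 9.27, 9.30 and 9.40 on Tc17 STAT3-/- arrays, against 8.81, 8.92 and 8.61 on Tc17 WT arrays. They were 9.26, 9.03 and 9.38 on Tc1 STAT3-/- arrays, against 9.25, 9.24 and 9.24 on Tc1 WT arrays. Tc17 WT was the low group once more, with a change of 0.52 ± 0.08 in Tc17 cells (SE; limma adjusted p = 0.00315). The second Tapbp probe set had levels of only 4.71 to 5.29 over the 12 arrays.

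Among the immunoproteasome subunits, Psmb9 had the largest change. It had levels of 8.33, 8.27 and 8.39 on Tc17 STAT3-/- arrays, against 7.62, 7.70 and 7.25 on Tc17 WT arrays. In Tc1 cells the levels were 8.21, 8.09 and 8.20 on STAT3-/- arrays, against 8.35, 8.29 and 8.11 on WT arrays. The Tc17 WT arrays lay below all others with a clear gap, their highest being 7.70 and the lowest of the rest 8.09. The change in Tc17 cells was 0.78 ± 0.10 (SE), or 1.72-fold (limma adjusted p = 0.000766). It was 0.64 over the biological arrays and 1.14 between the technical arrays.

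Psmb10 had levels of 9.11, 9.03 and 9.21 on Tc17 STAT3-/- arrays, against 8.63, 8.72 and 8.58 on Tc17 WT arrays. Tc1 STAT3-/- arrays had 8.998, 8.80 and 9.24, against 9.08, 9.03 and 9.28 on Tc1 WT arrays. The lowest Tc1 STAT3-/- array lay just above the highest Tc17 WT array, and Tc17 WT arrays were below all others. In Tc17 cells the change was 0.47 ± 0.08 (SE; limma adjusted p = 0.00430).

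Psmb8, the remaining immunoproteasome subunit, had 10.30, 10.39 and 10.49 on Tc17 STAT3-/- arrays, against 10.19, 10.15 and 9.98 on Tc17 WT arrays. It had 10.30, 10.22 and 10.45 on Tc1 STAT3-/- arrays, against 10.32, 10.35 and 10.50 on Tc1 WT arrays. Tc17 WT was again the lowest group, but the gap was small. The difference in Tc17 cells was 0.24 ± 0.10 (SE), with a 95% interval of 0.023 to 0.46, and did not pass the test (limma adjusted p = 0.0976). It was 0.17 over the biological arrays and 0.51 between the technical ones.

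B2m, the light chain of every class I molecule, had 12.69, 12.68 and 12.64 on Tc17 STAT3-/- arrays, against 12.33, 12.28 and 11.93 on Tc17 WT arrays. Tc1 STAT3-/- arrays had 12.71, 12.65 and 12.60, against 12.66, 12.60 and 12.47 on Tc1 WT arrays. The Tc17 WT technical array was the lowest of all 12. The change in Tc17 cells was 0.46 ± 0.10 (SE; limma adjusted p = 0.0127). With either Tc17 STAT3-/- sample left out, B2m no longer passed the test (limma adjusted p = 0.0899 without replicate 1 and 0.0719 without replicate 2).

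Erap1, the trimming peptidase, had levels of 8.26, 8.35 and 8.27 on Tc17 STAT3-/- arrays, against 7.78, 7.76 and 7.68 on Tc17 WT arrays. In Tc1 cells it had 8.28, 8.22 and 8.30 on STAT3-/- arrays, against 8.10, 8.12 and 8.26 on WT arrays. The biological and technical arrays gave nearly the same change in Tc17 cells, 0.53 and 0.59. In the fit it was 0.54 ± 0.09 (SE; limma adjusted p = 0.00284).

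Over the 9 genes, 8 rose in Tc17 STAT3-/- cells relative to Tc17 WT cells and 0 fell, where 18.2% of all genes tested rose, 6.83% fell and 25.1% did either. The median change was 0.54, against 0.11 over all 9862 genes. Because the 9 genes were chosen with earlier results of these data known, these shares and medians are a description. The 3 arrays of one genotype did not overlap those of the other for any of the 9 genes, which was the case in the higher direction for 33.6% of all genes (10.7% in the lower direction). Without the Tc17 WT technical array, 8 of the 9 genes still passed the test, with a median change of 0.44. Of all genes, 1626 were then higher and 815 lower, with a median of 0.072. With each array centred on the median of the tested genes, 8 of the 9 passed and the median change was 0.42, against -0.0093 over all genes. With that centring 1080 of all genes were higher and 1125 lower.

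In Tc1 cells 0 of the 9 genes passed the test for STAT3-/- over WT, and 0.0608% of all genes, 6 genes, did. At an unadjusted p under 0.05 there were 0 of the 9 genes and 370 of all genes. The differences ran from -0.11 for Psmb10 to 0.13 for Erap1, each with a limma adjusted p of 0.998, and the arrays of the genotypes overlapped for all 9 genes. Over all genes, 4.59% did not overlap and were higher and 3.19% did not overlap and were lower. The 95% intervals ended at most at 0.32 on the high side, for Erap1, and at -0.36 on the low side, for Tap1. For Nlrc5 the interval was -0.14 to 0.29, and for Psmb9 it was -0.31 to 0.12. An interval of this width does not show equal levels.

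**Figure D2:**
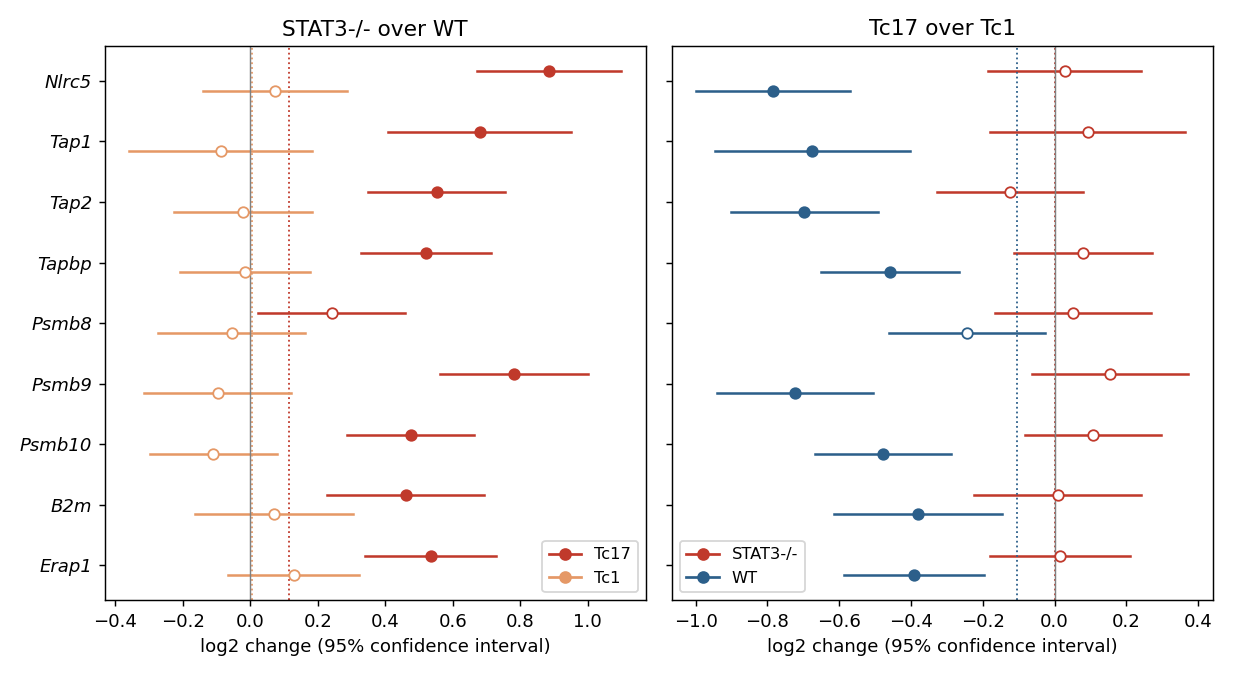
Log2 change (horizontal axis) of the 9 genes with 95% confidence intervals from limma, for STAT3-/- over WT in Tc17 and Tc1 cells (left) and for Tc17 over Tc1 cells in STAT3-/- and WT cells (right). Filled points passed an adjusted p of 0.05, open points did not, and dotted lines are the medians over all genes tested. 8 of the 9 genes passed for STAT3-/- over WT in Tc17 cells and for Tc17 over Tc1 in WT cells, where 18.2% of all genes tested were higher and 18% lower. In the other comparisons drawn 0 of 9 passed, as did 0.0608% of all genes for STAT3-/- over WT in Tc1 cells and 2.07% for Tc17 over Tc1 in STAT3-/- cells.

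The test of the difference between the genotype effects, STAT3-/- over WT in Tc17 cells minus that in Tc1 cells, passed for 6 of the 9 genes, all more positive in Tc17 cells, where 4.48% of all genes were (2.37% were more negative, 6.85% either). The difference was 0.88 ± 0.14 for Psmb9 (SE; limma adjusted p = 0.00739) and 0.81 ± 0.13 for Nlrc5 (SE; limma adjusted p = 0.00931). It was 0.77 for Tap1, 0.58 for Psmb10, 0.57 for Tap2 and 0.54 for Tapbp, with limma adjusted p-values of 0.0218 to 0.0328. Erap1 (0.41, limma adjusted p = 0.0825), B2m (0.39, limma adjusted p = 0.144) and Psmb8 (0.30, limma adjusted p = 0.224) did not pass. The count of 6 depended on single samples and on scaling. It was 1 without Tc17 STAT3-/- replicate 2, 2 without replicate 1 of that group or without any 1 of the 4 Tc1 samples, and 8 without Tc17 WT replicate 1. It was 3 after cyclic loess normalization or with the technical array averaged with replicate 1, and 2 with no filter on dim genes. Psmb9 passed under all 22 alternatives run, and Nlrc5 under all but the one without Tc17 STAT3-/- replicate 2 (limma adjusted p = 0.0549).

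The comparison of Tc17 with Tc1 cells in WT shares its Tc17 WT samples with the genotype comparison above, so the values stand side by side and do not add to one another. In WT cells 8 of the 9 genes were lower in Tc17 than in Tc1 cells and 0 higher, where 18% of all genes were lower, 7.01% higher and 25% either. The median was -0.48, against -0.10 over all genes. The 3 Tc17 WT and 3 Tc1 WT arrays did not overlap for any of the 9 genes, as for 30.1% of all genes in the lower direction and 10.8% in the higher. Nlrc5 fell by 0.78 ± 0.09 (SE; limma adjusted p = 0.000701), Psmb9 fell by 0.72 ± 0.10 (SE; limma adjusted p = 0.00116) and Tap2 fell by 0.70 ± 0.09 (SE; limma adjusted p = 0.000998). Tap1 fell by 0.68, Psmb10 fell by 0.48, Tapbp fell by 0.46, Erap1 fell by 0.39 and B2m fell by 0.38, with limma adjusted p-values of 0.00420 to 0.0271. The difference for Psmb8 was -0.24, which did not pass (limma adjusted p = 0.0936).

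Of these, B2m and Erap1 were the least stable. B2m passed under 15 of the 22 alternatives, and did not pass when a Tc1 WT sample, a Tc17 STAT3-/- sample or Tc17 WT replicate 2 was left out (limma adjusted p = 0.0543 to 0.167). Erap1 passed under 18, and did not pass without Tc1 WT replicate 2 (limma adjusted p = 0.0858). With the mean of its 2 probe sets in place of the brighter one, Tapbp differed by -0.23 and did not pass (limma adjusted p = 0.113).

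In STAT3-/- cells 0 of the 9 genes differed between Tc17 and Tc1 cells, where 2.07% of all genes did (1.05% higher, 1.01% lower). At an unadjusted p under 0.05 there were 0 of the 9 genes and 1098 of all genes. The differences ran from -0.12 for Tap2, with a 95% interval of -0.33 to 0.079, to 0.15 for Psmb9, with an interval of -0.063 to 0.37. Psmb9 was the 1 gene of the 9 whose arrays did not overlap, all 3 Tc17 STAT3-/- arrays (8.27 to 8.39) lying above all 3 Tc1 STAT3-/- arrays (8.09 to 8.21), as for 8.69% of all genes. The order of the group levels therefore had Tc17 WT lowest for each of the 9 genes, and the neighbours above it, Tc17 STAT3-/-, Tc1 STAT3-/- and Tc1 WT, did not pass the tests run between them (Tc17 STAT3-/- and Tc1 WT were not compared).

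The 9 genes varied together over the 8 samples, each with its lowest mean in Tc17 WT. How r runs between pairs of other genes was not computed. Pearson's r between pairs ran from 0.80 for Psmb8 and B2m to 0.985 for Tapbp and Psmb9, a description over samples that share arrays and fall into 4 groups. The genes whose levels most resembled those of Tap1 were Cdkn2aipnl (r = 0.997), Rnf4, a ubiquitin ligase (0.993), Cdk2, a cell cycle kinase (0.990), Foxn2 (0.989) and Pim1, a serine/threonine kinase (0.989). For Nlrc5 they were Maz, a zinc finger transcription factor (0.997), Rasgrp1, an activator of Ras (0.992), Gtf3c4 (0.990), Fasl, which triggers death through FAS (0.990), and Cep85l (0.989). None of these 10 was a member of the pathway lists used here. Each r is over the same 8 samples.

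The rest of the pathway was described by lists, in Tc17 cells first. Among all genes tested, 18.2% were higher in Tc17 STAT3-/- than in Tc17 WT cells and 6.83% lower. Of 9 class I heavy chain and related genes tested, 1 was higher in STAT3-/- than in WT cells and 0 lower, with a median change of 0.28. It was H2-K1, a classical heavy chain, with 10.46, 10.50 and 10.56 on Tc17 STAT3-/- arrays, against 10.07, 9.98 and 9.97 on Tc17 WT arrays. Its change was 0.47 ± 0.10 (SE; limma adjusted p = 0.00836), and it did not pass without Tc17 STAT3-/- replicate 2 (limma adjusted p = 0.0752). H2-Q10, a nonclassical heavy chain, differed more and the other way, at -0.58, and did not pass (limma adjusted p = 0.0533). Over the 22 alternatives the count of heavy chain genes that were higher ran from 0 to 4, the 4 being without Tc17 WT replicate 1, and 1 gene was lower under 11 of them. Some of the heavy chain genes are close to one another in sequence, so their probe sets can share signal.

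The constitutive counterparts of the immunoproteasome subunits did not pass. The change was 0.03 for Psmb5, 0.24 for Psmb6 and 0.32 for Psmb7 (limma adjusted p = 0.871, 0.100 and 0.0579). The sign of Psmb5 turned to -0.13 after cyclic loess normalization, and the median over these 3 genes was 0.24. Of 9 other subunits of the 20S core, 1 was higher, Psma1 (0.37), and of 17 subunits of the 19S cap 0 passed in either direction (medians 0.10 and 0.094). Of 9 proteasome activators and assembly factors 0 passed, with Psme1, the PA28 alpha subunit, at 0.16 and Psme2, its beta subunit, at -0.30 (limma adjusted p = 0.212 and 0.106). Of the 3 immunoproteasome subunits 2 passed, as given above, and these lists were not tested against one another. Among all genes tested 18.2% were higher and 6.83% lower. Over the 22 alternatives the counts of higher genes ran from 0 to 2 for the constitutive beta, the other 20S and the 19S lists, and Psmb7 passed under 6. Without Tc17 WT replicate 1, 2 constitutive beta and 2 of the 19S genes were higher.

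A list of 16 genes of the endoplasmic reticulum, here the chaperone list, had a median change of 0.041. Besides chaperone and peptide editing genes it held subunits of Sec61 and of the signal peptidase. A median without those subunits was not computed. Of the 16 genes, 2 were higher and 0 lower, against 18.2% and 6.83% of all genes tested. They were Sec11c (0.43, limma adjusted p = 0.00606) and Spcs2 (0.42, limma adjusted p = 0.0119), both subunits of the signal peptidase, which cuts leader peptides and is no chaperone. Of 9 other peptidase genes 1 was higher and 2 lower. Blmh, a cytosolic peptidase, changed by 0.36, Prep, a prolyl peptidase, by -0.41 and Cast, which encodes the calpain inhibitor calpastatin, by -0.27. Without 1 Tc17 STAT3-/- sample or the other, Psma1, Sec11c, Spcs2, Blmh and Cast did not pass, nor did Prep without replicate 2, while Psma1 and Cast passed under only 13 and 12 of the 22 alternatives.

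**Figure D3:**
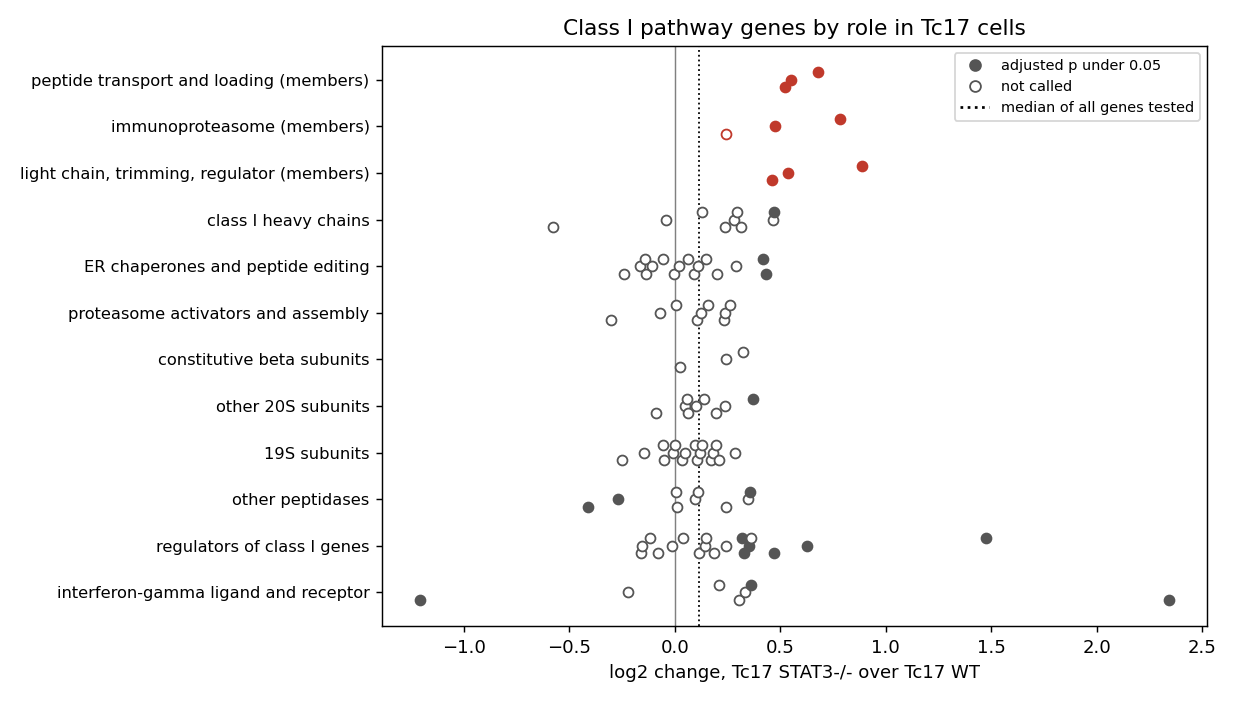
Log2 change of Tc17 STAT3-/- over Tc17 WT cells (horizontal axis) for class I pathway genes by role. Red points are the 9 genes, grey points other genes of the pathway, filled where limma's adjusted p was under 0.05, and the dotted line is the median over all genes tested. 8 of the 9 red points are filled, from 0.46 to 0.89, where 18.2% of all genes tested were higher, and Psmb8 is open at 0.24. The median of the 9 genes is 0.54. Medians of the grey lists run from 0.041 for the chaperone list to 0.28 for heavy chains and 0.30 for the interferon list. The chaperone list also holds Sec61 and signal peptidase subunits.

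A list of 18 regulators of class I genes was tested, mostly of transcription but also Socs1, an inhibitor of cytokine signals. Of these 18 genes, 6 were higher in Tc17 STAT3-/- than in Tc17 WT cells and 0 lower. Their median change was 0.17, and of all genes tested 18.2% were higher and 6.83% lower. The count of 6 was 2 without either Tc17 STAT3-/- sample, 3 without Tc17 WT replicate 2 or either Tc1 WT sample, and 8 without Tc17 WT replicate 1. It was 3, with 2 lower, after cyclic loess normalization. Irf1, the interferon-induced activator, had levels of 6.71, 6.81 and 6.70 on Tc17 STAT3-/- arrays, against 6.004, 6.44 and 5.96 on Tc17 WT arrays. On Tc1 STAT3-/- arrays it had 6.55, 6.42 and 6.38, against 6.56, 6.52 and 6.22 on Tc1 WT arrays. In Tc17 cells the 2 genotypes did not overlap, and the change was 0.63 ± 0.11 (SE; limma adjusted p = 0.00435), which passed under all 22 alternatives. The second Tc17 WT biological array, at 6.44, lay inside the range of the Tc1 arrays. The other regulators named by size were Prdm1, the repressor BLIMP-1 (1.47, limma adjusted p = 0.000132), Irf2, which binds the same elements as IRF1 (0.47, limma adjusted p = 0.00847), and Ezh2, a histone methyltransferase linked to silencing (0.35, limma adjusted p = 0.0297). Irf2 passed under 20 of the 22 alternatives, losing the call without either Tc17 STAT3-/- sample, and Ezh2 under 12.

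The interferon list held Ifng, the receptor chains Ifngr1, Ifngr2, Ifnar1 and Ifnar2, and the kinases Jak1 and Jak2. These 7 genes moved in both directions, with 2 higher and 1 lower in Tc17 STAT3-/- cells (1 to 5 higher over the 22 alternatives). Among all genes tested 18.2% were higher and 6.83% lower. Ifng, the ligand, had 7.08, 7.29 and 6.81 on Tc17 STAT3-/- arrays, against 4.61, 4.88 and 4.78 on Tc17 WT arrays. On Tc1 arrays it had 7.87, 7.51 and 8.12 in STAT3-/- cells, against 7.91, 8.06 and 8.12 in WT cells. Its change in Tc17 cells was 2.35 ± 0.11 (SE; limma adjusted p = 3.85e-06). The receptor chain Ifngr1 changed by 0.36 (limma adjusted p = 0.0150; not passing without either Tc17 STAT3-/- sample) and the chain Ifngr2 by -1.21 (limma adjusted p = 9.83e-05). WT and STAT3-/- cells shared the culture, and secreted protein was not measured.

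In Tc1 cells 0 genes of any of these lists passed for STAT3-/- over WT, and 0.0608% of all genes tested did. In the test of the difference between the genotype effects, Irf1 was at 0.62 (limma adjusted p = 0.0486) and passed under 7 of 22 alternatives. Prdm1 was at 1.33 (limma adjusted p = 0.00477), Ifng at 2.50 (limma adjusted p = 5.92e-05) and Ifngr2 at -1.58 (limma adjusted p = 0.000474), and each of these 3 passed under all 22. H2-K1 was at 0.38 and did not pass (limma adjusted p = 0.129).

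For Tc17 over Tc1 in WT, 0 of 9 heavy chain genes passed, with H2-K1 at -0.27 (limma adjusted p = 0.0666), though 3 were lower and 1 higher without Tc17 WT replicate 1. Of the 18 regulators 6 were lower and 2 higher, where 18% of all genes tested were lower and 7.01% higher. Without Tc1 WT replicate 1 the counts were 1 lower and 1 higher, without replicate 2 of that group 3 lower and 0 higher. The 4 of largest change were Prdm1 (-1.53), Creb1, which binds the X2 element (-0.61), Irf2 (-0.52) and Ezh2 (-0.45), with limma adjusted p-values of 0.000100 to 0.0109. Without Tc1 WT replicate 1 the last 3 did not pass (limma adjusted p = 0.0511 to 0.0760). Irf1 was at -0.36 (limma adjusted p = 0.0405) and passed under 8 of 22 alternatives. Ifng fell by 3.28 and Ifngr1 by 0.38 on the log2 scale, while Ifngr2 was higher by 3.21 (limma adjusted p = 3.22e-07, 0.0123 and 3.22e-07).

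Among all genes tested, 18% were lower in Tc17 WT than in Tc1 WT cells and 7.01% higher. Of 3 constitutive beta subunits 0 were lower, and 0 genes of the proteasome lists were higher. Lower were 2 of 9 activator and assembly genes, 2 of 9 other 20S subunits and 2 of 17 19S subunits. They were Pomp, an assembly chaperone (-0.39), Psme4, an activator (-0.33), Psma1 (-0.45) and Psmb2 (-0.28) of the 20S core, and Psmc1 (-0.38) and Psmd13 (-0.27) of the 19S cap. Of the 22 alternatives Psme4 passed under 9, Psmb2 under 10 and Psmd13 under 7, and without Tc1 WT replicate 1 none of these 6 genes passed. Of the 16 genes of the chaperone list 1 was lower, Sec11c (-0.35), which passed under 15 of the 22 alternatives. Its change was -0.37 without Tc1 WT replicate 1 and -0.33 without replicate 2 of that group, and it passed in neither case. After cyclic loess normalization 0 of the 16 genes were lower and 2 higher. Of 9 peptidase genes Cast was higher (0.44) and Blmh lower (-0.43), and neither passed without Tc1 WT replicate 2 (limma adjusted p = 0.0513 and 0.0509).

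In STAT3-/- cells, Tc17 over Tc1, 1 regulator passed, Irf8, a lymphoid and myeloid factor, which was higher by 0.64 (limma adjusted p = 0.00797). Irf1 was at 0.26 and did not pass (limma adjusted p = 0.430). Ifng fell by 0.78 on the log2 scale (limma adjusted p = 0.00568) and Ifngr2 was higher by 1.63 (limma adjusted p = 8.82e-05). Of the heavy chain, chaperone, proteasome and peptidase lists 0 genes passed here, where 2.07% of all genes tested did.

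Because class I genes are active in many blood cells, markers of cell types were read beside them. Of all genes tested 18.2% were higher in Tc17 STAT3-/- than in Tc17 WT cells and 6.83% lower. All 7 CD8 T cell markers on the array were tested, and 1, Cd8a, was higher in Tc17 STAT3-/- than in Tc17 WT cells (0.30, limma adjusted p = 0.0446), a call kept under 10 of the 22 alternatives. Levels of the 7 markers were summed off the log2 scale. The log2 of this sum was 13.57 to 13.71 on Tc17 STAT3-/- arrays, against 13.40 to 13.49 on Tc17 WT arrays. Summed levels of the other lists below were taken in the same way. Of 8 B cell markers on the array 3 reached the level for testing. Ighm was higher by 1.77 and Cd79b by 0.78 in Tc17 STAT3-/- than in Tc17 WT cells. With the mean of its probe sets in place of the brightest, Ighm was higher by 0.52 (limma adjusted p = 0.00368). Ebf1 reached the level for testing through Tc17 WT cells alone, with a mean of 2.99 in Tc17 STAT3-/- cells against 5.08 in Tc17 WT cells, and of 2.91 in Tc1 STAT3-/- cells against 3.01 in Tc1 WT cells, so its difference is a description. The summed level of the B cell list was 10.97 to 11.23 on Tc17 STAT3-/- arrays against 9.51 to 9.59 on Tc17 WT arrays. In Tc1 cells it was 10.55 to 10.88 without STAT3 against 10.60 to 10.62 in WT, so this sum was lowest in Tc17 WT. Most of the sum is Ighm, with a mean of 9.09 in Tc17 WT and 10.44 to 10.86 in the other groups. Cd79b and Ebf1 did not have this order. Cd79b had a mean of 6.78 in Tc17 WT against 6.71 in Tc1 WT, and Ebf1 was highest in Tc17 WT. Ms4a1, which encodes CD20, was at most 2.65 and Cd79a at most 4.29 on any array, both under the level of 5 set for testing.

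Of 13 myeloid and dendritic cell markers 3 were tested, and Cd68 was lower in Tc17 STAT3-/- cells (-1.12, limma adjusted p = 0.000243). The summed level of this list overlapped between all groups, at 9.88 to 9.94 on Tc17 STAT3-/- arrays, against 9.74 to 10.18 on Tc17 WT arrays. Most of the sum is H2-Ab1, with group means of 9.25 to 9.42, so the overlap is largely that of 1 gene. Of 2 CD4 T cell markers tested 0 passed, and 0 of 3 NK cell markers reached the level for testing. The part of these markers in the result was not tested. In bulk samples, fewer cells of a type and less RNA per cell cannot be told apart.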

How the data were processed

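The deposited values are log2 levels, which the authors derived with RMA and Partek, per the submitters' processing notes. The role and version of each tool are not given in the sources used. RMA narrows differences near background, so changes of dim genes are understated. Only probe sets with exactly 1 gene symbol (23521 of 41345) were used, with the highest mean where a gene had several. Genes with a group mean of at least 5 were tested (9862 of 22180).

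In each group the mean of biological replicate 2 and the technical array formed 1 sample. The 8 samples were fitted by group in R 4.3.3 using limma 3.58.1 (functions lmFit, contrasts.fit, eBayes; 4 residual and 4.87 prior degrees of freedom, version 1.17.8 of data.table for input). Adjusted p-values are two-sided, Benjamini-Hochberg over all genes tested, and genes passed at under 0.05. The fit was tested on simulated data. Named were all 9 genes, up to 4 passing genes of largest change per pathway list in 2 comparisons, further pathway genes fixed by name, and the 5 genes most like Tap1 and like Nlrc5. Members and lists were chosen with earlier results of these data known. Irf8, H2-Q10 and the marker genes that passed were named after their values were seen. Promoters come from RefSeq. Plots used Python 3.11.15 and matplotlib 3.10.9. The number of arrays limits the precision.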

Additional observations from a re-analysis of the deposited data

Results flagged for a closer look

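The effect of STAT3 loss differed between the Tc17 and Tc1 conditions for 6 of the 9 genes, by the limma test of that difference, all more positive in Tc17 cells, where 4.48% of all genes tested were more positive and 6.85% differed either way. Leaving out 1 sample at a time moved this count from 1, without Tc17 STAT3-/- replicate 2, to 8, without Tc17 WT replicate 1. The STAT3-/- over WT log2 change in Tc17 cells minus that in Tc1 cells was 0.88 for Psmb9, 0.81 for Nlrc5, 0.77 for Tap1, 0.58 for Psmb10, 0.57 for Tap2 and 0.54 for Tapbp. The limma adjusted p-values were 0.00739 for Psmb9, 0.00931 for Nlrc5, 0.0309 for Tap1, 0.0218 for Psmb10, 0.0319 for Tap2 and 0.0328 for Tapbp. With 2 samples in each group, sample groups were too small for single values to be screened as outliers.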

How the results depend on the processing

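Alternatives covered the technical arrays, the replicate block, scaling, the filter, probe sets, the groups fitted, eBayes options and leaving out each sample, where the lone sample left in a group is taken to vary like the other groups. Member changes kept direction and side of the threshold in 918 of the values recomputed, lost it in 56, gained it in 6 and changed sign in 10, all of these near 0 and not passing. For STAT3-/- over WT in Tc1, leaving out 1 sample at a time gave Tap2 -0.055 to 0.013, Tapbp -0.046 to 0.013, Psmb8 -0.11 to 0.00095 and Nlrc5 -0.023 to 0.17. For Tc17 over Tc1 in STAT3-/-, it gave Psmb8 -0.019 to 0.12, Erap1 -0.0084 to 0.038 and B2m -0.033 to 0.050, and B2m turned to -0.016 with quantile normalization and -0.0029 with cyclic loess. Psmb5 in Tc17 cells turned to -0.094 with centring on tested genes, -0.066 with quantile normalization, and -0.13 with cyclic loess, and leaving out 1 sample gave -0.021 to 0.072.

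The count of the 9 genes passing for STAT3-/- over WT in Tc17 was 7 to 8 when single samples were left out, for the interaction 1 to 8, for Tc17 over Tc1 in WT 6 to 8, and 0 in the other comparisons. The interaction count was 3 with the technical array averaged with replicate 1, 2 with no filter and 3 with cyclic loess. Counts of all genes ranged from 949 to 3192 (2473 as reported) for STAT3-/- over WT in Tc17, 4 to 7 (6) in Tc1, 244 to 1553 (676) for the interaction, 1098 to 3242 (2468) for Tc17 over Tc1 in WT and 65 to 247 (204) in STAT3-/-. For STAT3-/- over WT in Tc1 the count of all genes was 24 with technical arrays left out, 16 with them averaged with replicate 1, 13 with them as samples, 14 without the Tc17 WT technical array and 15 with the replicate block. For the interaction it was 1259 with technical arrays left out, 1018 with the replicate block and 384 with no filter. For Tc17 over Tc1 it was 1501 in WT with these groups alone and 409 in STAT3-/- with technical arrays left out. The cause was not tested.

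The replicate block left the members' counts at 8 in Tc17, 0 in Tc1, 6 for the interaction, and 8 and 0 for Tc17 over Tc1. Deviations of samples with the same number correlated at 0.098 to 0.455, and at 0.00036 to 0.172 over biological arrays alone, and no label says that numbers pair samples. The share of passing genes that were higher in Tc17 STAT3-/- cells was 72.7%, and 49% with centring on tested genes, 51.5% with cyclic loess, 60.3% with quantile normalization and 82.5% with centring on all probe sets. For Tc17 over Tc1 in WT it was 28%, and 51%, 50.2%, 39.8% and 18.3% under the same 4 scalings. For STAT3-/- over WT in Tc17 cells, 8 members passed under each of these 4 scalings, all higher. Of all genes tested, 1080, 1065, 1328 and 2266 were then higher, in the order above. For Tc17 over Tc1 in WT the members passing were 7, 7, 8 and 8, all lower. Of all genes tested, 1110, 1072, 1348 and 2233 were lower there. For the interaction the members passing were 4, 3, 6 and 6, against 266, 273, 350 and 528 of all genes more positive.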
